A study of Mus musculus with 9 samples.

Results

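Genes that bind, make or sense retinoids were followed in ribosome-bound RNA of mouse retinae 72 h after the optic nerve was crushed. The members were chosen by symbol from a list of 9 genes: the retinoic acid binding proteins Crabp1 and Crabp2, the enzymes Rdh10, Dhrs3 and Aldh1a1, the receptors Rara, Rarb and Rxra, and the visual cycle binding protein Rlbp1. All 9 were found among the 14194 entries of the deposited table. Every library came from mice carrying Aldh1l1-Cre/ERT2, a Cre recombinase driven by an astroglial gene and switched on by tamoxifen, together with NuTRAP, a reporter that puts GFP on the ribosomes of recombined cells. Ribosomes were pulled down through GFP from 2 pooled retinae per library, and the pulled-down (positive) fraction was sequenced. The labels used here give no age for the mice. Crushed eyes (ONC, 5 libraries, from animal pools 913/986, 914/92, 938/88, 976/978 and 981/982) had the nerve clamped for 3 s about 1 mm behind the eye. Control libraries (4, from the same pools except 913/986) came from fellow eyes, which had either no procedure or a sham procedure, and the labels do not say which; a control of pool 913/986 was not analysed here. The question put to the values was whether the crush moved retinoic acid genes and visual cycle genes alike.

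Vitamin A (retinol) has separate uses in the retina. In the visual cycle, the retinal bleached from opsins is turned back into its light-sensitive form, in the pigment epithelium for rods and also in Müller glia for cones, and CRALBP, the product of Rlbp1, carries the 11-cis retinoids in both cell types. Retinol can also be oxidised to retinal by RDH10, with DHRS3 driving the reverse step, and then to retinoic acid by ALDH1A enzymes. Retinoic acid is carried in the cell by CRABP1 and CRABP2, binds receptors of the RAR family paired with RXR on DNA, and is broken down by CYP26 enzymes. CRABP2 is known for handing retinoic acid to RAR in the nucleus, and CRABP1 is best known for holding it in the cytoplasm.

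The values are log2 and relative to a control baseline of each gene, so that 0 is the usual control level and levels of different genes cannot be compared. They hold no library totals, which leaves sequencing depth unknown, and precision rests on the spread between libraries. Since levels are relative, the labelled cell type could not be checked by abundance. The driver gene Aldh1l1 is known from astrocytes as well as Müller glia, and all 7 listed astrocyte markers were in the table. All 18 listed Müller glia markers were in the table and had passed the submitters' raw-value filter in both conditions, but so had all 16 pigment epithelium, 13 photoreceptor and 11 amacrine markers. Over the Müller glia list the library medians ran from -0.47 to 0.23 in Control and from -0.22 to 0.50 in ONC, with the median gene 0.14 higher in ONC. Medians of microglia and macrophage markers were -0.13 to 0.00 in Control and 0.28 to 2.99 in ONC, although 5 of these 15 markers passed the filter in 1 condition alone. The 4 Y-linked genes stood at -8.14 to -7.35 in ONC 913/986 and ONC 914/92 and at -1.53 to -0.98 in Control 914/92, against -0.33 to 1.66 in the other 6 libraries. The eyes of pool 914/92 therefore differed in Y-linked RNA although the labels give them to the same animals. Fits without these libraries are given for some genes and lists, and not for every result. P-values of the main fit rest on the spread between libraries within each group and leave out the pairing of the eyes of a pool. Differences within a pool take the pairing from the labels. Control 914/92 and Control 976/978 ran most like the ONC library of another pool. In such bulk RNA, fewer cells of a type and less RNA per cell cannot be told apart.

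Of the 9 members, Crabp2 rose after crush and the other 8 did not pass the test; 3 of the 9 (Crabp2, Rdh10 and Crabp1) had an unadjusted p under 0.05, against 19.6% of all genes. The background was low: 0.352% of the 14194 genes passed at an adjusted p under 0.05, in either direction. Crabp2 carries retinoic acid to its nuclear receptor. Its values in Control were 0.00 in pool 914/92, -0.26 in 938/88, -0.26 in 976/978 and 0.37 in 981/982. In ONC they were 3.40 in pool 913/986, 3.73 in 914/92, 2.86 in 938/88, 3.12 in 976/978 and 3.01 in 981/982. The groups did not overlap: the lowest crushed library stood far above the highest control. The means were -0.04 ± 0.30 (SD, n = 4) in Control and 3.22 ± 0.35 (SD, n = 5) in ONC, a log2 difference of 3.26 ± 0.32 (SE), or 9.59-fold with a 95% confidence interval of 5.82 to 15.8 (limma, adjusted p = 0.0119). Within the 4 pools that have both eyes the log2 difference was 3.73 in 914/92, 3.11 in 938/88, 3.38 in 976/978 and 2.64 in 981/982.

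Crabp2 is also the 1 member that passed the raw-value filter in just 1 of the 2 conditions, which means that some library of the other condition had a raw value outside the filter's limits. Its fold therefore rests on a low control level. Of the 639 genes that passed in 1 condition, 1.56% were called higher in ONC at an adjusted p under 0.05, against 0.19% of all genes. A gene that entered the table through the group where it is high was selected towards a difference between the groups. The size of the Crabp2 difference held between 2.60 and 3.40 on the log2 scale over 19 alternatives, but its call did not. The call held under 12 of them. With the animal pool as a block, where ONC 913/986 has no partner and adds nothing to the difference, the adjusted p was 0.0801 (0.0260 with the block and no variance trend). Without the block and without a trend it was 0.000251. Without ONC 913/986 and ONC 914/92 the difference was 3.03 (adjusted p = 0.128), and without both libraries of pool 914/92 it was 3.15 (adjusted p = 0.0360), or 3.05 with the pool as a block as well (adjusted p = 0.146). The adjusted p was 0.0676 without Control 938/88, 0.0751 without Control 976/978, 0.148 after quantile normalization and 0.0518 in a model with a Y-linked term.

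**Figure D1:**
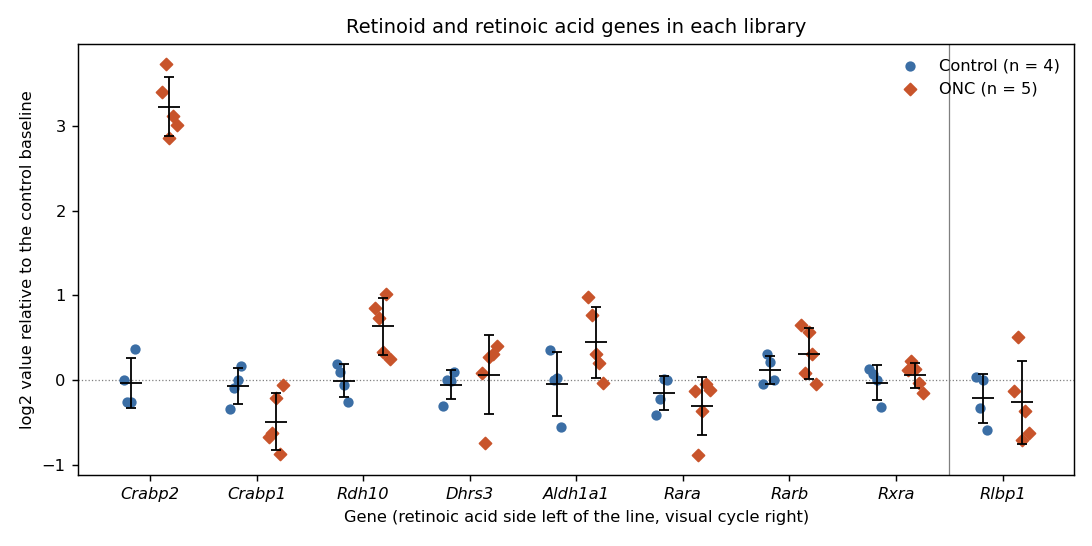
Log2 values of the 9 members (y axis, relative to the control baseline of each gene) in each library, with Control as circles (n = 4) and ONC as diamonds (n = 5). Bars are the mean and SD. Crabp2 stands at 2.86 to 3.73 in ONC, above all its controls, while the ONC libraries of the other members lie between -0.89 and 1.02.

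Crabp1, the sister gene of Crabp2, did not pass the test, and its difference was negative. Its values in Control were -0.35 in pool 914/92, -0.10 in 938/88, 0.00 in 976/978 and 0.17 in 981/982. In ONC they were -0.67 in pool 913/986, -0.63 in 914/92, -0.22 in 938/88, -0.87 in 976/978 and -0.06 in 981/982. The groups overlapped, because Control 914/92 lay below ONC 938/88 and ONC 981/982, yet ONC was below Control in all 4 pools. The log2 difference was -0.42 ± 0.19 (SE; 95% interval -0.84 to -0.0026) and did not pass (adjusted p = 0.252). Crabp2 minus Crabp1 in the same library was -0.26 to 0.35 in Control and 4.07, 4.37, 3.08, 3.99 and 3.07 in ONC. This gap is mostly the Crabp2 difference of 3.26 given above, from a gene that passed the filter in 1 condition alone. It is no separate result about the pair. In the retina Crabp1 is known from amacrine cells, and the amacrine marker list had a median gene 0.27 lower in ONC, with library medians of -0.31 to 0.20 in Control and -0.78 to 0.17 in ONC; the part of this in the Crabp1 values was not tested. Transcripts of the paired genes share no exact run longer than 11 bases (GENCODE M21 transcripts of 802 and 931 bases), so an exact match of a read to both genes is limited to that length. In the deposited coordinates, on mm10, Crabp2 (gene ID 12904) lies on chromosome 3 from 87948693 to 87953372 and Crabp1 (gene ID 12903) on chromosome 9 from 54764808 to 54773109.

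Of the enzymes, Rdh10 was the member nearest to a call after Crabp2. RDH10 makes the retinal from which retinoic acid is formed, and its gene (gene ID 98711) lies on chromosome 1 from 16105882 to 16132550. Rdh10 in Control was 0.18 in pool 914/92, 0.10 in 938/88, -0.06 in 976/978 and -0.26 in 981/982. In ONC it was 0.85 in pool 913/986, 0.73 in 914/92, 0.32 in 938/88, 1.02 in 976/978 and 0.25 in 981/982. The groups did not overlap, although the lowest ONC library and the highest control were close. The log2 difference was 0.64 ± 0.18 (SE), or 1.56-fold with an interval of 1.18 to 2.06, and did not pass over all genes (adjusted p = 0.129). Without ONC 913/986 and ONC 914/92 the Rdh10 difference was 0.54 (adjusted p = 0.414). Crabp2 and Rdh10 are the 2 of 9 members whose groups did not overlap, both higher in ONC, against 7.83% of all genes in either direction and 3.39% higher. Crabp2 passed the raw-value filter in 1 condition alone, which selects towards such a gap. The count of 2 is therefore no evidence about the members as a set. Rdh10 was higher in ONC in 4 of 4 pools, by 0.23 (938/88) to 1.07 (976/978).

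Aldh1a1, which oxidises retinal to retinoic acid, differed by 0.49 ± 0.24 (SE; interval -0.06 to 1.03, adjusted p = 0.291). Its controls were 0.35 in pool 914/92, 0.00 in 938/88, 0.03 in 976/978 and -0.56 in 981/982. Its ONC values were 0.97 in pool 913/986, 0.77 in 914/92, 0.30 in 938/88, 0.20 in 976/978 and -0.03 in 981/982. The groups overlapped, but within each of the 4 pools the crushed eye was the higher, by 0.18 to 0.52, and pool 981/982 was the lowest pool in both eyes. The Müller glia marker median was also lowest in Control 981/982 (-0.47) and ONC 981/982 (-0.22), and its part in the Aldh1a1 values was not tested. Without ONC 913/986 and ONC 914/92 the Aldh1a1 difference was 0.20 (adjusted p = 0.784). Dhrs3, which turns retinal back to retinol, had controls between -0.30 and 0.10 and ONC values of 0.08, 0.27, 0.30 and 0.40 in 4 libraries, with ONC 914/92 alone at -0.74. Its difference was 0.12 ± 0.22 (SE; interval -0.38 to 0.62, adjusted p = 0.776). Without both libraries of pool 914/92 the Dhrs3 difference was 0.24 (adjusted p = 0.265), and it too did not pass.

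None of the 3 receptor members passed the test. Rara, the retinoic acid receptor alpha, differed by -0.15 ± 0.18 (SE; adjusted p = 0.646), with controls from -0.41 to 0.01 and ONC values from -0.89 (914/92) to -0.05 (976/978). Rarb, receptor beta, whose own gene is a classic target of retinoic acid, was in Control -0.04 in pool 914/92, 0.31 in 938/88, 0.21 in 976/978 and 0.00 in 981/982. In ONC it was 0.65 in pool 913/986, 0.09 in 914/92, 0.56 in 938/88, 0.31 in 976/978 and -0.05 in 981/982. The groups of Rarb overlapped widely, and the difference of 0.19 ± 0.16 (SE; interval -0.17 to 0.56) did not pass (adjusted p = 0.498). Rxra, the partner receptor RXR alpha, differed by 0.09 ± 0.12 (SE; interval -0.19 to 0.36, adjusted p = 0.696), with controls from -0.33 to 0.13 and ONC values from -0.15 to 0.22. On a fold scale the upper limits of the intervals were 1.47 for Rarb, 1.28 for Rxra and 1.20 for Rara.

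Rlbp1 (gene ID 19771, chromosome 7 from 79374870 to 79387027) is the visual cycle member, and its product CRALBP holds 11-cis retinoids in Müller glia. Its values in Control were 0.04 in pool 914/92, -0.33 in 938/88, 0.00 in 976/978 and -0.59 in 981/982. In ONC they were -0.13 in pool 913/986, 0.50 in 914/92, -0.71 in 938/88, -0.37 in 976/978 and -0.62 in 981/982. The groups overlapped through their whole range, and ONC was above Control in 1 of 4 pools, 914/92. The difference was -0.05 ± 0.25 (SE; interval -0.61 to 0.52, adjusted p = 0.924), and its sign turned under quantile normalization (0.03). On a fold scale the interval runs from 0.65 to 1.43, which leaves room for a fall or a rise, so an unchanged level was not shown.

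To compare the retinoic acid side with Rlbp1, the visual cycle member, the Rlbp1 value of each library was subtracted from every gene. That cancels the scale of the library. It sets each gene against 1 of the 12 measured visual cycle genes, and not against the visual cycle as a whole. Crabp2 minus Rlbp1 was -0.04, 0.07, -0.26 and 0.95 in the controls of pools 914/92, 938/88, 976/978 and 981/982. In ONC it was 3.53 in pool 913/986, 3.23 in 914/92, 3.57 in 938/88, 3.49 in 976/978 and 3.63 in 981/982. The ONC libraries spread less in this value than in either gene alone, while the controls spread more, with Control 981/982 the highest. Crabp2 departed from Rlbp1 by 3.31 ± 0.39 (SE) on the log2 scale (limma, adjusted p = 0.00295, against 0.373% of 14193 genes called), with Crabp2 chosen in knowledge of its rise. Crabp2 passed the raw-value filter in 1 condition alone, and subtracting Rlbp1 does not undo that selection. The adjusted p is therefore no independent evidence of a rise. The same Rlbp1 value also enters every gene of a library, so all genes share its error. All 53 genes called against Rlbp1 were higher in ONC. The Crabp2 call against Rlbp1 ended without ONC 913/986 and ONC 914/92 (3.38, adjusted p = 0.0698), after quantile normalization (2.57, adjusted p = 0.195) and with the pool as a block in the absence of pool 914/92 (3.31, adjusted p = 0.0952). No other retinoic acid member passed the test against Rlbp1. Rdh10 departed from it by 0.69 (interval 0.16 to 1.22, adjusted p = 0.434), Aldh1a1 by 0.53 (0.04 to 1.03, adjusted p = 0.690) and Crabp1 by -0.37 (-1.26 to 0.51, adjusted p = 0.999). Rarb, Rxra, Dhrs3 and Rara departed by 0.24, 0.13, 0.17 and -0.10, each with an adjusted p of 0.999. Leaving out ONC 914/92, the library with the highest Rlbp1 value, brought Rdh10 past the threshold against Rlbp1 (0.86, adjusted p = 0.0472). It was the 1 such call under 19 alternatives.

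**Figure D2:**
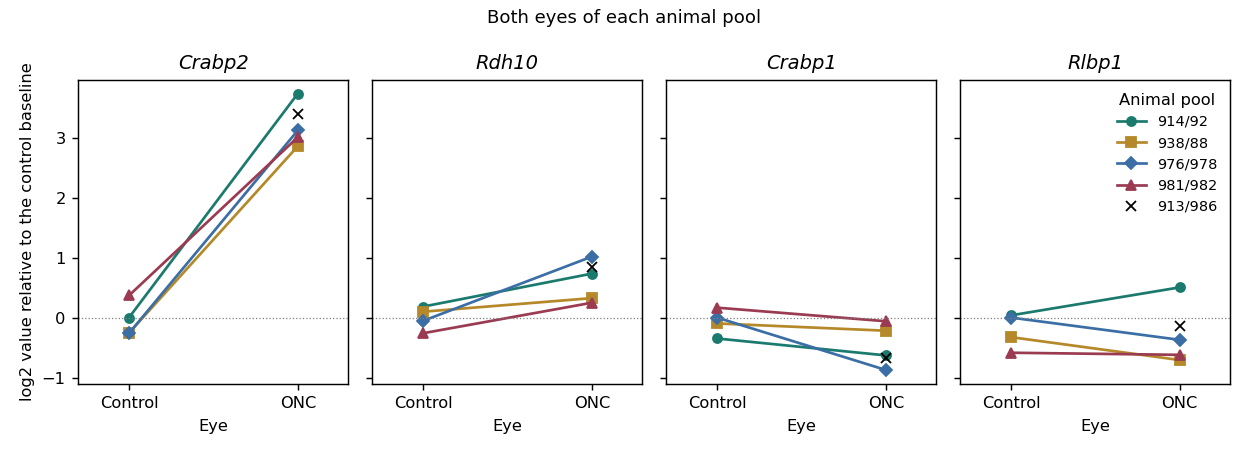
Log2 values (y axis) of Crabp2, Rdh10, Crabp1 and Rlbp1 in the control and the crushed eyes of each animal pool (x axis); a line joins the eyes of 1 pool, and pool 913/986 has a crushed library alone. All 4 lines rise for Crabp2 (by 2.64 to 3.73) and for Rdh10 (by 0.23 to 1.07), all 4 fall for Crabp1, and for Rlbp1 the line of pool 914/92 rises while the other 3 fall.

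The wider pathway was read from 5 lists, of which 43 of 58 genes were in the table. Among genes that bind retinoids or take them up, 8 of 13 were measured and Crabp2 alone passed. Fabp5, which can carry retinoic acid to the receptor PPAR delta, differed by 0.11 ± 0.15 (SE; adjusted p = 0.701). Rbp4, the retinol carrier of blood, was not in the table.

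Enzymes of retinoic acid synthesis and breakdown had 12 of 19 genes measured, none of them past the threshold, 7 with a positive and 5 with a negative difference (median 0.13, against 0.00 over all genes). Rdh10 had the smallest p. Cyp1b1, a cytochrome P450 that can oxidise retinol, had the next, with a difference of 0.47 ± 0.21 (SE; adjusted p = 0.251) and higher values in ONC in 4 of 4 pools. Aldh1a3 and Aldh1a2, the other enzymes that make retinoic acid, differed by 0.41 ± 0.36 and -0.14 ± 0.45 (SE; adjusted p = 0.527 and 0.869), with wide spreads among the controls (SD 0.57 and 1.00). Cyp26b1, which breaks retinoic acid down, differed by -0.25 ± 0.25 (SE; adjusted p = 0.569).

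The list of receptors and coregulators was measured in full, and 9 of 13 genes had a negative difference, with a median of -0.38 and none past the threshold. The lowest was Rxrg, RXR gamma, which in the retina is known from cones and ganglion cells. Its controls were -0.31, -0.55, 0.00 and 0.08 in pools 914/92, 938/88, 976/978 and 981/982. In ONC it was -0.92 in pool 913/986, -0.88 in 914/92, -1.64 in 938/88, -1.02 in 976/978 and -1.61 in 981/982. The groups of Rxrg did not overlap (4.44% of all genes were lower without overlap), and the difference of -1.02 ± 0.27 (SE; 2.03-fold lower) did not pass over all genes (adjusted p = 0.118, and 0.0605 without a variance trend). Beside it, ganglion cell markers had library medians of -0.23 to 0.09 in Control and -1.09 to -0.56 in ONC, and photoreceptor markers -0.63 to 0.16 and -1.13 to 0.10; their part in the Rxrg values was not tested. Rarg and Rxrb, the remaining receptors, differed by 0.17 ± 0.13 and 0.08 ± 0.08 (SE; adjusted p = 0.472 and 0.550).

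**Figure D3:**
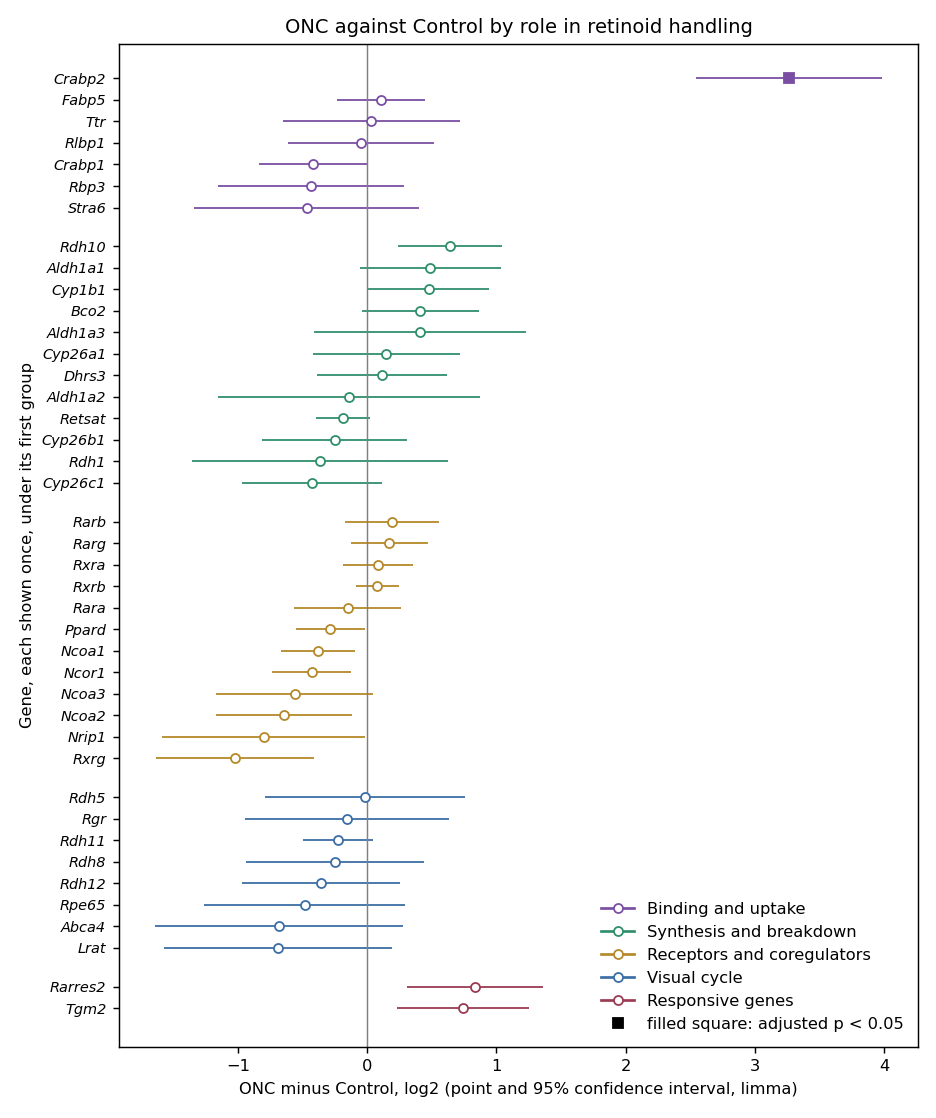
ONC minus Control difference (x axis, log2, with the 95% confidence interval from limma) of 41 measured pathway genes, each drawn once under its role. The filled square, Crabp2 at 3.26, is the gene with an adjusted p under 0.05. The other points lie between -1.02 (Rxrg) and 0.83 (Rarres2).

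Genes known to respond to retinoic acid were examined as a readout that does not rest on the binding proteins alone. Receptor pairs bind direct repeats of a hexamer, and promoters were searched on both strands for AGGTCA or any of the variants AGTTCA and GGGTCA and GGTTCA repeated with a spacer of 1, 2 or 5 bases. In RefSeq promoter windows (250 bases before to 50 after each start, GRCm38.p6, 32851 windows of 27025 genes), the repeat with a spacer of 5 stood in 31 genes (0.115%), among them the member Rarb and the breakdown enzyme Cyp26a1. Windows were found for 7 of the 9 members, and not for Crabp2 and Rdh10. The Rarb element begins 53 bases before the start (chr14:16575513-16575529, minus strand) and the Cyp26a1 element begins 32 bases before it, with the repeat on the opposite strand (chr19:37697776-37697792, gene on the plus strand). The stretches from 130 bases before each start up to it are shown because they hold the response element of the retinoic acid targets whose values follow; capitals mark the hexamers, in the direction of the gene.
Rarb: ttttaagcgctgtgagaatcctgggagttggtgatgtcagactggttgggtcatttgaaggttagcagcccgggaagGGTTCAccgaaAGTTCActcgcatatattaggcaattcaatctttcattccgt
Cyp26a1: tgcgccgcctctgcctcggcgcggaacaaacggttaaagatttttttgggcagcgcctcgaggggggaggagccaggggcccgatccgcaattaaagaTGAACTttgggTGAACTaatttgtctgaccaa

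Rarb and Cyp26a1, the genes with these elements, differed by 0.19 ± 0.16 and 0.15 ± 0.25 (SE), and neither passed (adjusted p = 0.498 and 0.751). Cyp26a1 values were 0.22, -0.26, 0.29 and -0.45 in Control and 0.47, 0.61, -0.55, 0.03 and -0.06 in ONC, in the order of pools used above, with the groups overlapping through nearly their whole range. The third gene with this repeat in the table, Blvrb, a biliverdin reductase, differed by 0.34. The repeat with a spacer of 1 stood in 28 genes of the table, 18 with a positive difference (median 0.06). With a spacer of 2 it stood in 10, 4 of them positive (median -0.07). None of the members found had either repeat. Single hexamers stood in the windows of 46.9% of genes and of 5 of the 7 members found. The motif TTCNNNGAA, to which STAT factors bind, stood in 9.55% of genes and in the windows of Rara and Rarb among the members. A match is a description of letters and not of binding.

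Of 9 measured genes on the list of retinoic acid responsive genes, Crabp2 passed and 7 had a positive difference (median 0.19). When libraries were centred on the Müller glia markers, which moved the median of all genes to -0.21, 4 of the 9 were positive and the list median was -0.01. After Crabp2 the nearest was Rarres2, the precursor of chemerin, with 0.83 ± 0.23 (SE; 1.78-fold, adjusted p = 0.130), and next came Tgm2, tissue transglutaminase, with 0.74 ± 0.23 (SE; 1.67-fold, adjusted p = 0.147). Rarres2 was 0.81, 0.00, -0.34 and -0.17 in Control and 1.18, 0.87, 0.70, 0.65 and 1.15 in ONC. Tgm2 was 0.84, -0.19, 0.00 and -0.07 in Control and 0.98, 1.05, 0.78, 1.14 and 0.48 in ONC. For both genes the control of pool 914/92 stood among the crushed libraries and made the groups overlap, and both were higher in ONC in 4 of 4 pools. Neither passed under any of 20 alternatives.

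The genes whose 9 values ran most like those of Crabp2 were Avil, Sprr1a, Sox11, the predicted gene Gm13889 and Ecel1, with Pearson correlations of 0.991, 0.991, 0.986, 0.984 and 0.970 over the 9 libraries. These points fall into a control and a crushed cluster and share their normalization, so the correlations mainly describe the step between groups. Avil, the actin-binding advillin of sensory neurons, was 9.53-fold higher in ONC (adjusted p = 0.0189), and Sprr1a, a small proline-rich protein induced by axon injury, was 101-fold higher. The adjusted p of Sprr1a was 0.906 with the variance trend and 0.000251 without it. Sox11, a transcription factor of developing neurons, was 10.3-fold higher and Ecel1, a membrane protease of neurons, 24.2-fold higher (adjusted p = 0.0119 and 0.0282). None of the 5 is a retinoid gene. Beside these values, the ganglion cell and microglia medians given above stood apart between the groups, and markers of leukocytes other than microglia, with 4 of 10 measured (2 of the 4 past the filter in 1 condition), had library medians of -0.28 to 0.79 in Control and 1.85 to 3.84 in ONC. The part of other cell types in the Crabp2 values was not tested.

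On the visual cycle list, Rlbp1 included, 12 of 13 genes were measured. None passed, 11 had a negative difference, and the list median was -0.30, against 0.00 over all genes. With ONC 913/986 and ONC 914/92 left out, 8 were negative and the median was -0.11. After quantile normalization 10 were negative (median -0.25), and without pool 914/92 it was 11 (median -0.34). Centred on the Müller glia markers, which moved the median of all genes to -0.21, 11 were negative (median -0.51). Since these genes are known from different cells, they were sorted by cell type after their values were seen.

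The pigment epithelium set holds Rpe65, the isomerase, Lrat, which esterifies retinol, Rgr, a retinal-binding opsin, Rdh5, which makes 11-cis retinal, and Stra6, a receptor for retinol uptake. Their median was -0.53, 0.34, 0.00 and 0.55 in the controls of pools 914/92, 938/88, 976/978 and 981/982. In ONC it was -0.95 in pool 913/986, -0.12 in 914/92, -0.91 in 938/88, 0.68 in 976/978 and -0.42 in 981/982, so that crushed libraries gave both the lowest and the highest value. Lrat differed by -0.69 ± 0.39, Rpe65 by -0.48 ± 0.34, Stra6 by -0.47 ± 0.39, Rgr by -0.16 ± 0.35 and Rdh5 by -0.02 ± 0.34 (SE; adjusted p = 0.338, 0.437, 0.498, 0.808 and 0.980). The 12 other pigment epithelium markers had medians of -0.45 to 0.24 in Control and -0.27 to 0.06 in ONC, and their part in these values was not tested.

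The photoreceptor set holds Rdh8, Rdh11 and Rdh12, which reduce all-trans retinal, Rbp3, which carries retinoids between cells, and Abca4, which clears retinal from outer segments. Its median was -0.62, 0.00, 0.00 and 0.03 in Control and -0.52, -1.27, -0.22, -0.25 and 0.04 in ONC, lowest in both eyes of pool 914/92 and in ONC 913/986. The 13 photoreceptor markers lay close to it, at -0.63, 0.00, 0.00 and 0.16 in Control and -0.85, -1.13, -0.25, -0.24 and 0.10 in ONC; their part in these values was not tested. Abca4 differed by -0.68 ± 0.43, Rbp3 by -0.43 ± 0.32, Rdh12 by -0.36 ± 0.27, Rdh8 by -0.25 ± 0.31 and Rdh11 by -0.23 ± 0.12 (SE; adjusted p = 0.380, 0.451, 0.466, 0.652 and 0.314). Without ONC 913/986 and ONC 914/92 the differences, in the same order, were -0.13, -0.10, 0.00087, 0.12 and -0.12, and none passed. Rlbp1 ran otherwise: ONC 914/92, the lowest library for the photoreceptor set, was the highest for Rlbp1 and for the 17 other Müller glia markers (0.50 and 0.51).

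**Figure D4:**
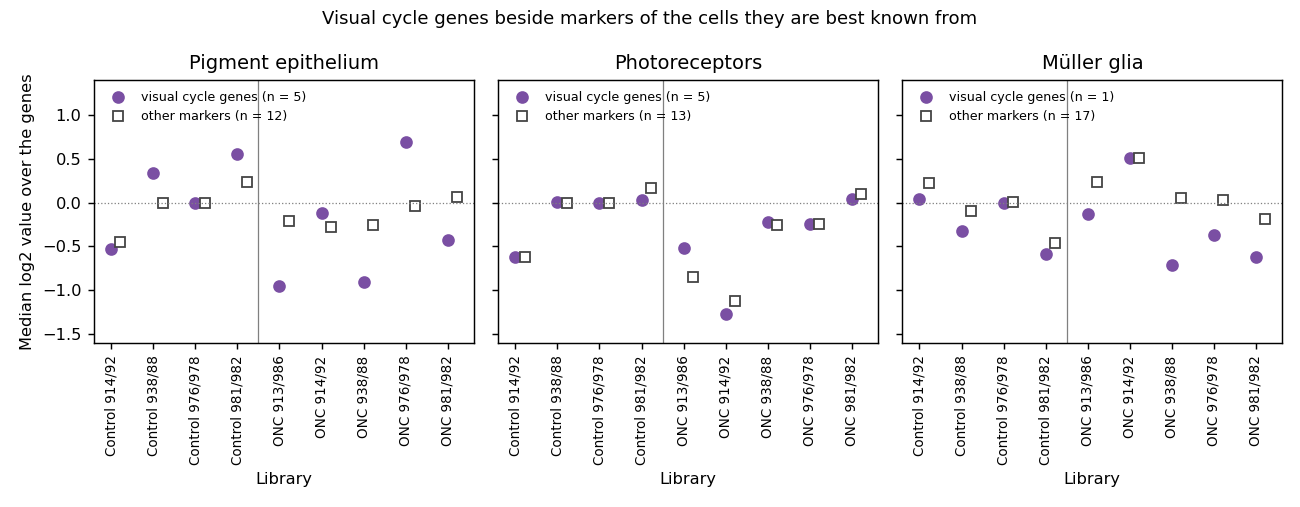
Median log2 value (y axis) in each library (x axis, Control left of the line and ONC right) of visual cycle genes known from pigment epithelium, photoreceptors and Müller glia (filled circles) and of other markers of the same cells (open squares). The photoreceptor circles follow the squares, with ONC 914/92 lowest at -1.27 and -1.13, whereas ONC 914/92 is highest in the Müller glia panel at 0.50 and 0.51.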

How the data were processed

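The deposited table was used as it stands. Its header states that values were normalized, that gene models are from RefSeq, and that genes were kept where every library of ONC, of Control or of both had raw values from 5 to 298892.188. Of 14194 entries, 13555 passed in both conditions and 639 in 1. The scale of the deposited values, log2 with a baseline set by the controls of each gene, is an inference from the values, because no header names it. The submitters' processing notes name mm10 and DESeq; they are silent here on the aligner and the counter.

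Each gene was fitted with limma 3.58.1 (R 4.3.3), ONC against Control, with a variance trend and no covariate, and again after subtracting Rlbp1. P-values are two-sided, with Benjamini-Hochberg adjustment over all genes and a threshold of 0.05. Without absolute levels, the mean that the variance trend uses moves with the difference itself, and fits without it are given where calls differ. Pairs come from the animal numbers. Deviations from the group means correlated at -0.06 to 0.45 within the 4 pools. Control 938/88 and Control 981/982 correlated best with the ONC library of their own pool. Control 914/92 correlated best with ONC 913/986, and Control 976/978 with ONC 914/92. The replicates are pools of animals. The fit was tested on simulated data.

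The members and lists were chosen with earlier results of these data known. Named genes are the 9 members, pathway genes past the threshold, the 2 smallest p in each pathway list, a set list of textbook genes, and the 5 genes most like Crabp2 by Pearson correlation. Cyp26a1 and Blvrb were named for their promoter repeat, and Lrat as a gene of the pigment epithelium set. Some pathway genes are not reported here. The alternatives were no trend, the pool as a block, other scalings, other filters, libraries left out and Y-linked RNA as a covariate.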

Additional observations from a re-analysis of the deposited data

Results flagged for a closer look

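Among 60 groups of values (30 named genes, Control and ONC each), 2 had a library far from the others by Dixon's gap test, and chance flags about 1 group in 20. Dhrs3 in ONC 914/92 was -0.74, against 0.08 to 0.40 in the other 4 ONC libraries. Rdh12, a photoreceptor retinol dehydrogenase, was -0.62 in Control 914/92, against 0.00 in the other 3 controls, which lay within 0.00037 of one another. Both come from pool 914/92, whose eyes differ in Y-linked RNA. No cause was tested.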

How the results depend on the processing

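The count of genes changed was 50 over all genes and 53 relative to Rlbp1. It was 165 without a variance trend (45 relative to Rlbp1), 0 with the animal pool as a replicate block and a trend (339), 129 with the replicate block and no trend (496), 0 after quantile normalization (0), 14 when centred on Müller glia markers, 0 among genes that passed the filter in both conditions (9), where Crabp2 gives no value, 178 relative to Rlbp1 without pool 914/92, 0 with a Y-linked covariate (16), 0 without ONC 913/986 and ONC 914/92 (0), and, without pool 914/92, 0 with the block and a trend (0) and 20 with the block and no trend (262). Where limma called 0 over all genes, 3574, 1848, 2672, 1805, 1571 and 2630 had an unadjusted p under 0.05, in that order. Leaving out 1 library gave 0 to 68 genes, and 12 to 280 relative to Rlbp1. Alternatives without the 2 libraries and with the block but not pool 914/92 were chosen after seeing the data. Of 750 values of named genes under the alternatives, 691 kept their direction and their side of the threshold, 10 lost the call (all of Crabp2, over all genes or relative to Rlbp1), 1 gained it and 48 changed sign, none of them in a gene that passed.

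Sign changes were not all small. In the main fit Rara relative to Rlbp1 was -0.10, Aldh1a2 -0.14 and Rdh8 -0.25, and their changed values are among those that follow. With the block Fabp5 was -0.021 and Rdh5 0.11. After quantile normalization Rlbp1 was 0.028, Rara 0.00013 and Rarb relative to Rlbp1 -0.0075. Centred on Müller glia markers Dhrs3 was -0.091, Rarb -0.014, Rxra -0.12, Fabp5 -0.10, Rarg -0.037 and Rxrb -0.13. Without pool 914/92 Aldh1a2 was 0.30 (0.17 with the block) and Rara relative to Rlbp1 0.063 (0.16 with the block). With the Y-linked covariate Fabp5 was -0.0085, Rdh5 0.067, Rdh8 0.11, and Crabp1 and Rara relative to Rlbp1 0.022 and 0.31. Without the 2 libraries Fabp5 was -0.015, Rdh5 0.043, Rdh8 0.12, Rdh12 0.00087, and Crabp1 and Rara relative to Rlbp1 0.034 and 0.33. With 1 library left out, Rlbp1 ran from -0.24 to 0.064, Rxra from -0.012 to 0.14, Aldh1a2 from -0.57 to 0.17, Fabp5 from -0.021 to 0.16, Rdh5 from -0.28 to 0.13 and Rgr from -0.42 to 0.017. Relative to Rlbp1, Dhrs3 ran from -0.0079 to 0.56 and Rara from -0.27 to 0.23. The causes were not tested. With unknown depth, the low control level of Crabp2 has no counting error attached.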
